A study of Homo sapiens with 4 samples.

Results

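Collagens are the main structural proteins of the extracellular matrix, and their genes were followed here in T98G cells, an established human glioblastoma line, with and without overexpression of LGP2. The genes were taken from the deposited count table by symbol, COL, a number, A and a number, which selected 29 of its 20913 genes. Of these 7 encode fibrillar chains, 5 encode chains of type IV collagen, the network collagen of basement membranes, and 17 encode other chains. A filter on low counts left 27 of the 29 for testing, and COL4A4 and COL21A1, with 19 and 56 counts over all libraries, are given only as counts.

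There were 2 libraries of T98G cells carrying a vector and 2 of T98G cells overexpressing LGP2, numbered 2 and 3 in each group. LGP2, encoded by DHX58, is an RNA helicase related to the virus sensor RIG-I. The labels call the line an astroblastoma and name 293T cells in the growth text. LGP2 overexpression is also entered as the treatment of the vector libraries, so groups were taken from the titles. The column headers carry the word flag for the LGP2 libraries. The sources used here name neither the promoter of the construct nor whether the cells were a clone or a pool. Separate cultures are not stated for the replicates, so a p-value reflects only the spread between these libraries, which may be technical.

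Library totals ran from 56033379 to 63932198 counts. DHX58 rose from 377 and 571 counts under vector to 30509 and 34045 under LGP2 overexpression (log2 fold change 6.09, SE 0.24, quasi-likelihood test of edgeR, adjusted p = 1.9e-06). Of 8 astroglial and glioma markers 5 were analysed here. GFAP, the intermediate filament of astrocytes, lay between 0.345 and 0.693 CPM (counts scaled to the library total) and NES between 0 and 0.568 CPM. OLIG2 lay between 1.60 and 3.49 CPM, CD44 between 1652 and 2198 CPM, and VIM, also a mesenchymal filament, between 2841 and 4026 CPM. The summed level of the 5 was 6228 and 4746 CPM in vector cells versus 5011 and 4599 CPM in LGP2 cells. Of 8 fibroblast and pericyte markers 6 were analysed, led by THY1, and their summed level was 506 and 462 CPM in vector cells versus 462 and 426 CPM in LGP2 cells. Their part in the collagen levels was not tested.

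A collagen molecule is built from 3 chains wound into a triple helix, and each chain carries a glycine at the start of every Gly-X-Y triplet, because only glycine fits at the centre of the helix. Fibrillar chains form long uninterrupted helices that pack into fibrils, whereas type IV chains have interrupted, flexible helices that join into sheets. Type VI chains form beaded microfibrils next to cells, FACIT chains sit on the surface of fibrils, and transmembrane and multiplexin chains carry short helical parts joined to other domains. In the brain, collagens are known mainly from vessel walls and the meninges, and mesenchymal glioma cells are known to make them as well.

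Coding sequences in GENCODE 29 set the fibrillar genes apart from the rest, while type IV and other genes overlapped in run length. The longest unbroken run of in-frame glycine-led triplets was 343 in COL3A1, 339 in COL1A2 and COL5A2, and 338 in COL1A1, COL5A1 and COL11A2. COL27A1, the remaining fibrillar gene, had a longest run of 217. In the 5 type IV genes the longest run was 38 (COL4A6) to 66 (COL4A2), with 22 to 27 separate runs of at least 5 triplets in each gene. In the type VI genes the longest run was 87 in COL6A1 and COL6A2 and 45 in COL6A3. The remaining other genes ran from 30 (COL15A1 and COL18A1) to 113 (COL9A2, COL9A3 and COL21A1). Inside the type IV range were COL8A1 (61), COL8A2 (60), COL16A1 (57), COL17A1 (56), COL19A1 (56) and COL13A1 (44). Runs of at least 5 triplets numbered 21 in COL16A1 and 20 in COL7A1, next to the type IV genes. COL6A3 had only 10.5% of its 3177 codons in runs of at least 5 triplets, against 77.7% of 1366 codons in COL1A2. The first 45 bases of the longest run are shown for the leading gene of each class and for COL13A1, with the glycine codons (GG and any base) in capitals, to show the repeat that defines the family.
COL1A2: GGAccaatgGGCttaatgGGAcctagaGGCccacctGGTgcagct
COL4A2: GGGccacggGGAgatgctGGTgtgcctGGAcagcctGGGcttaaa
COL6A3: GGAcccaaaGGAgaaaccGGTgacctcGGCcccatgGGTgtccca
COL13A1: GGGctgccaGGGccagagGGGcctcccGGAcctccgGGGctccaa

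T98G cells made mostly type VI collagen transcripts, and no collagen chain gene passed the test between LGP2 overexpression and vector. Collagen chains together took 0.334% (vector replicate 2), 0.308% (vector replicate 3), 0.279% (LGP2 replicate 2) and 0.277% (LGP2 replicate 3) of the counts. On TMM-scaled totals this was 3507 and 3021 CPM in the vector pair, then 2777 and 2689 CPM in the LGP2 pair. Both LGP2 libraries therefore lay below both vector libraries in summed collagen reads, with a log2 ratio of the group means of -0.26. That ratio was -0.21 on plain library totals, -0.14 when vector replicate 2 was left out and -0.36 when vector replicate 3 was. These alternatives were added after the data were seen. Some other measures also separated the groups, and single genes did so in 33.2% of all genes tested. The fibroblast and pericyte sum given above was lower in both LGP2 libraries, though narrowly. It was 462.4 CPM in vector replicate 3 and 461.7 CPM in LGP2 replicate 2. The astroglial and glioma sum given above overlapped. So did the sum of the epithelial markers (3 of 4 analysed), at 129 and 94.9 CPM (vector) against 111 and 112 CPM (LGP2). The microglia and macrophage markers (3 of 6 analysed, nearly all CD68, with CD14 at 0 in both LGP2 libraries) summed to 115 and 93.4 CPM under vector and 89.9 and 80.5 CPM under LGP2 overexpression. The neuron markers (2 of 4, SNAP25 and TUBB3) summed to 235 and 237 CPM under vector and 282 and 253 CPM under LGP2 overexpression, and mitochondrial genes took 3.72% and 3.85% against 4.50% and 3.95% of counts. Their part in the collagen sum was not tested. The 3 type VI genes held 62.8% to 68.6% of these reads in each library. In a bulk measurement, fewer cells making a transcript and less transcript per cell cannot be told apart.

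**Figure D1:**
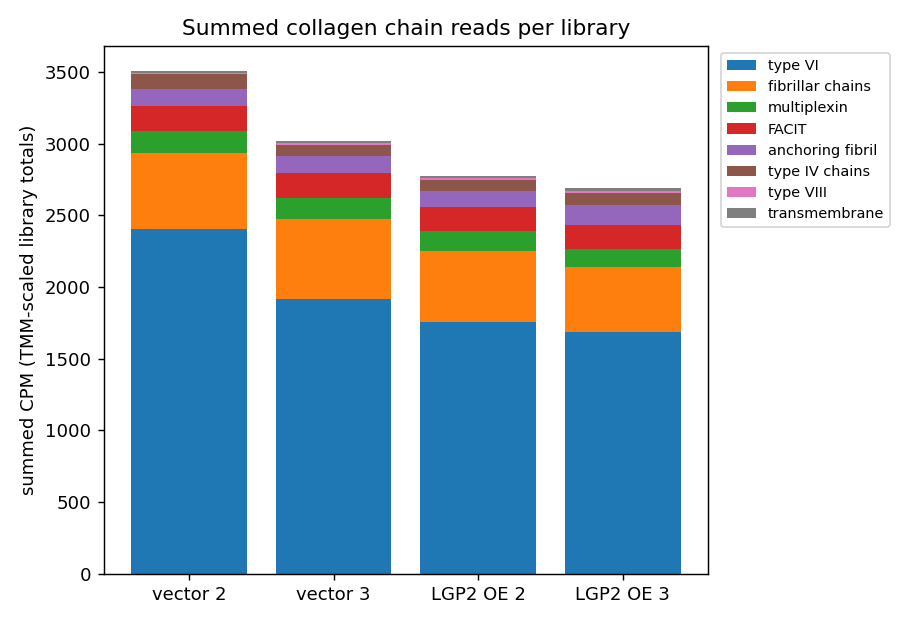
Summed CPM (TMM-scaled library totals) of collagen chain genes per library, stacked by structural group. The total is 3507 and 3021 CPM in the vector libraries and 2777 and 2689 CPM in the LGP2 overexpression libraries, and type VI genes make up the largest block in all 4.

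Among the fibrillar chains, transcripts of the type I pair were far from balanced. Type I collagen, the main fibril protein of connective tissue, normally pairs α1 chains, encoded by COL1A1 on chromosome 17 (50183289 to 50201632, minus strand, GENCODE 29 on GRCh38, as for all gene positions here), with an α2 chain, encoded by COL1A2 on chromosome 7 (94394561 to 94431232, plus strand). COL1A2 reached 390 and 421 CPM under vector and 361 and 318 CPM under LGP2 overexpression. COL1A1 was at 1.64 and 3.24 CPM (vector) against 2.51 and 1.29 CPM (LGP2). Per kb of exon, the level of COL1A2 was 209 and 114 times that of COL1A1 in vector and 127 and 217 times with LGP2, and the vector and LGP2 ratios overlap. With the longest transcript as the length the ratio ran from 146 to 277. The excess of COL1A2 was thus present in all 4 libraries whatever the group.

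COL1A2 did not overlap between groups, with both LGP2 libraries below both vector libraries. Its log2 fold change of -0.26 had an SE of 0.15 and a 95% interval of -0.60 to 0.087 (edgeR adjusted p = 0.998), and without each library in turn it ran from -0.35 to -0.17. With offsets for GC content and transcript length it was -0.43 (SE 0.16, unadjusted p = 0.0231, adjusted p = 0.999 by edgeR). COL1A1 had a log2 fold change of -0.37 (SE 0.47), and its groups overlapped. Its sign turned without vector replicate 3, to 0.20, and without LGP2 overexpression replicate 3, to 0.036.

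COL3A1, which encodes the homotrimeric type III chain of distensible tissues, was nearly silent, with 20 and 41 counts in vector cells versus 18 and 20 in LGP2 cells. COL11A2, a chain of cartilage fibrils, had 26 and 27 counts in the vector pair, then 46 and 30 in the LGP2 pair. Neither level exceeded 0.82 CPM in any library, and the intervals of both changes reached beyond a 2-fold change in each direction (-2.56 to 1.21 for COL3A1 and -1.11 to 2.20 for COL11A2, on the log2 scale).

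Type V collagen, a minor partner that sets the diameter of type I fibrils, was represented by 2 chains at closer levels. COL5A1, on chromosome 9 (134641774 to 134844843, plus strand), was at 90.0 and 80.7 CPM (vector) against 74.4 and 75.6 CPM (LGP2). COL5A2, on chromosome 2 (189031896 to 189225312, minus strand), was at 38.4 and 45.0 CPM in vector cells versus 43.8 and 43.4 CPM in LGP2 cells. COL5A1 was lower in both LGP2 libraries than in both vector libraries, and COL5A2 overlapped. The log2 fold changes were -0.19 (SE 0.14, 95% interval -0.49 to 0.12) for COL5A1 and 0.064 (SE 0.16, 95% interval -0.30 to 0.42) for COL5A2. COL5A1 moved to -0.10 without vector replicate 2 and -0.26 without vector replicate 3. Per kb of exon COL5A1 stood at 1.56 times COL5A2 in vector replicate 2 and at 1.13 to 1.19 times in the other 3 libraries. COL27A1, a fibrillar chain of developing cartilage, was at 9.18 and 11.1 CPM in the vector pair, then 9.45 and 12.8 CPM in the LGP2 pair, a log2 fold change of 0.13 (SE 0.23).

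The 7 fibrillar genes had 3 log2 fold changes above 0 and 4 below, with a median of -0.19, beside -0.0080 over all 17863 genes tested. The median depended on vector replicate 3, since it was 0.18 without that library. It was -0.057 over the 4 genes with at least 5 CPM in 2 libraries. The summed fibrillar level, 530 and 562 CPM in vector against 492 and 452 CPM with LGP2, is mostly COL1A2, and its log2 ratio of -0.21 ran from -0.27 to -0.15 when each library was left out.

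**Figure D2:**
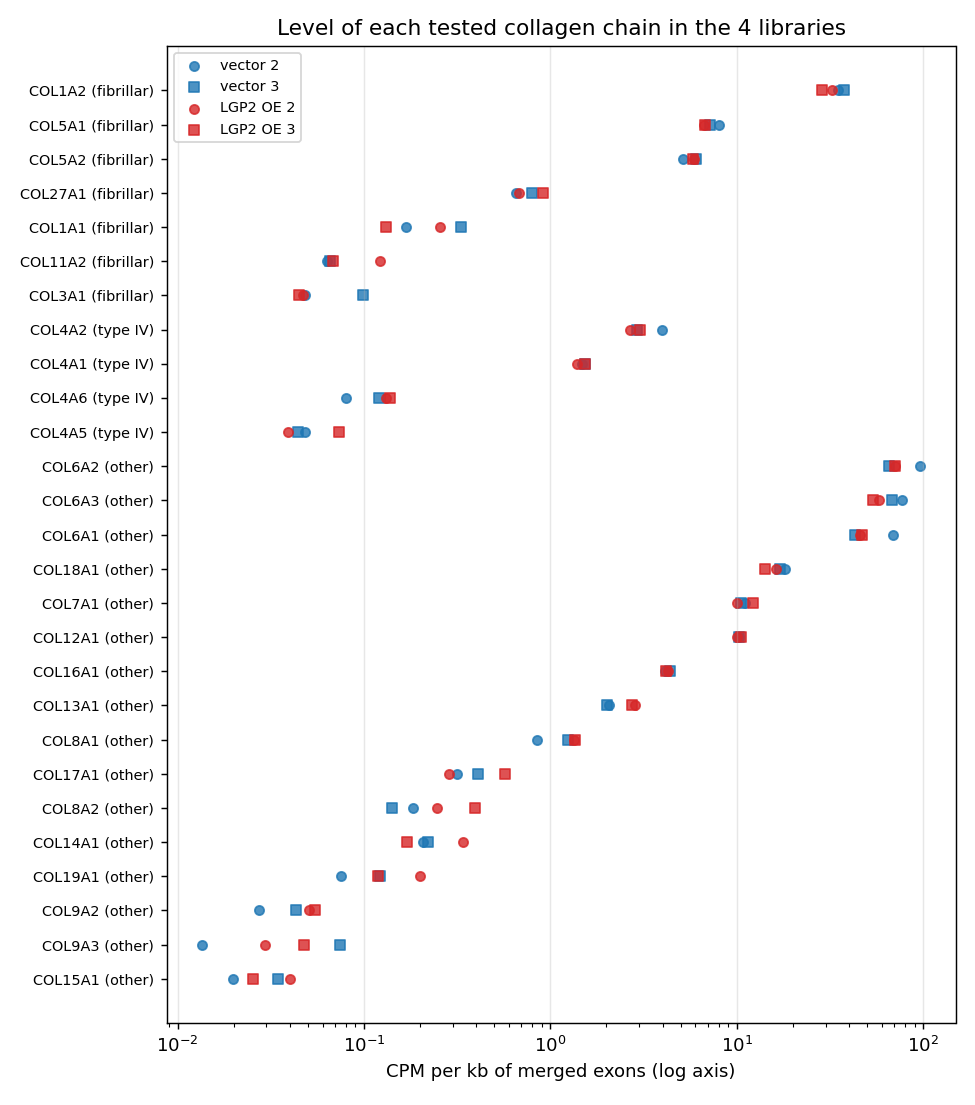
Level of the 27 tested collagen chain genes in each library, as CPM per kb of merged exons on a log axis, with circles for replicate 2, squares for replicate 3, blue for vector and red for LGP2 overexpression. COL1A2 and the 3 type VI genes stand at the right, COL1A1 lies 114-fold to 217-fold below COL1A2, and the low genes at the left show the widest spread between replicates.

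Of the type IV chains, only COL4A1 and COL4A2 were above 2 CPM in any library. These 2 chains form the common type IV network in a mixed trimer. Their genes lie head to head on chromosome 13, COL4A1 on the minus strand (110148963 to 110307233) and COL4A2 on the plus strand (110305812 to 110513209), and the RefSeq starts on GRCh38.p14 are 127 bp apart. The 126 bases between the starts are shown because they lie between the RefSeq starts used, although the longer GENCODE gene span of COL4A2 holds all of them and that of COL4A1 a part. They are read on the COL4A2 strand at chr13:110307158-110307283, with a CCAAT motif and a GC box (GGGCGG) in capitals.
COL4A1-COL4A2: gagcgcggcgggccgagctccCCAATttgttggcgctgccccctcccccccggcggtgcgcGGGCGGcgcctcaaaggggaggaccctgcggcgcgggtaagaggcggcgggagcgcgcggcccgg
CCAAT on either strand was found in 34.6% of the 35116 RefSeq promoter windows of 300 bases, and GGGCGG on either strand in 45.0%. Those windows run from 250 bases before to 50 after the start. They are longer than the 126 bases shown, so the shares are only a rough guide. The match is a description of these letters and not of a bound factor.

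COL4A1 was at 21.8 and 22.7 CPM (vector) against 20.5 and 22.5 CPM (LGP2), and COL4A2 at 76.9 and 56.1 CPM in vector cells versus 51.7 and 58.5 CPM in LGP2 cells. Vector replicate 2 stood apart for COL4A2 and not for COL4A1. Per kb of merged exons, COL4A2 was at 2.70 times COL4A1 in that library and at 1.89 to 1.99 times in the other 3. In log2 fold change, COL4A1 was at -0.049 (SE 0.18, 95% interval -0.46 to 0.36) and COL4A2 at -0.27 (SE 0.18, 95% interval -0.66 to 0.12), the latter -0.025 without vector replicate 2 and -0.48 without vector replicate 3. Exons on the opposite strand (COL4A2-AS1 and COL4A2-AS2) overlap those of COL4A2, and without known strand use their reads cannot be told apart from its own.

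COL4A5 and COL4A6, another head-to-head pair, on chromosome X, encode chains of specialised basement membranes such as those of kidney and smooth muscle. COL4A6 was at 0.740 and 1.12 CPM in the vector pair, then 1.23 and 1.27 CPM in the LGP2 pair, and COL4A5 at 0.576 and 0.527 CPM (vector) against 0.462 and 0.875 CPM (LGP2). COL4A6 did not overlap between groups and COL4A5 did, and their log2 fold changes were 0.43 for COL4A6 (SE 0.51) and 0.28 for COL4A5 (SE 0.70). COL4A6 ran from 0.16 without vector replicate 2 to 0.75 without vector replicate 3. The sign of COL4A5 turned without LGP2 overexpression replicate 3, to -0.25. COL4A4, a chain of the kidney filter, had 7 and 4 counts in vector cells versus 0 and 8 in LGP2 cells. The 4 tested type IV genes split evenly, 2 above and 2 below 0, with a median of 0.12 that was -0.18 without LGP2 overexpression replicate 3.

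Type VI collagen dominated the family. COL6A1 and COL6A2 lie close together on chromosome 21 (45981737 to 46005050 and 46098097 to 46132849, both plus strand), and COL6A3, whose chain is the largest of the trimer, on chromosome 2 (237324003 to 237414375, minus strand). COL6A3 was at 1520 and 1331 CPM in the vector pair, then 1135 and 1056 CPM in the LGP2 pair. COL6A2 was at 516 and 354 CPM (vector) against 379 and 381 CPM (LGP2). COL6A1 was at 369 and 230 CPM in vector cells versus 244 and 252 CPM in LGP2 cells. COL6A3 was lower in both LGP2 libraries than in both vector libraries, whereas for COL6A1 and COL6A2 the LGP2 libraries lay between the vector libraries, of which replicate 2 was the highest of all 4.

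No type VI gene passed the test. For COL6A3 edgeR gave a log2 fold change of -0.38 (SE 0.18, 95% interval -0.77 to 0.013, unadjusted p = 0.0564, adjusted p = 0.998), and it ran from -0.47 without vector replicate 3 to -0.28 without vector replicate 2. COL6A2 was at -0.20 (SE 0.19) and COL6A1 at -0.27 (SE 0.21), and both turned positive without vector replicate 2, to 0.10 and 0.11. Without vector replicate 3 COL6A1 was at -0.57 and was called (adjusted p = 0.0253 by edgeR, with 1 vector library in the fit), the only call of a collagen chain when each library was left out in turn. Leaving out the other libraries gave adjusted p-values of at least 0.988 for COL6A1.

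Levels of the 3 type VI genes per kb of merged exons were 75.6 for COL6A2, 64.2 for COL6A3 and 51.3 for COL6A1, as CPM per kb over the 4 libraries. With the longest transcript as the length, COL6A2 and COL6A3 were at 118 and 117 CPM per kb and COL6A1 at 64.6. The ratio of COL6A2 to COL6A1 per kb was 1.39 and 1.53 under vector, and both LGP2 libraries lay at or below 1.54 and above 1.39. That of COL6A3 to COL6A1 was 1.12 and 1.58 (vector) against 1.26 and 1.14 (LGP2). The ratio of the 2 neighbours on chromosome 21 moved less between libraries than that of COL6A3 to COL6A1, which was highest in vector replicate 3. The 250 bases before the RefSeq start of COL6A2 (chr21:46097862-46098111, plus strand) and of COL6A3 (chr2:237414165-237414414, minus strand, GRCh38.p14) are shown to compare the 2, with GC boxes (GGGCGG or CCGCCC) and a TATA motif (TATAAA) in capitals.
COL6A2: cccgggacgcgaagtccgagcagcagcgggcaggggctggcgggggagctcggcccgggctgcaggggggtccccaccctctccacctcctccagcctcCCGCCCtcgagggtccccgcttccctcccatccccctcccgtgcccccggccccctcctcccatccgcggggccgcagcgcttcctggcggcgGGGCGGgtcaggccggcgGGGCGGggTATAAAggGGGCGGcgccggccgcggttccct
COL6A3: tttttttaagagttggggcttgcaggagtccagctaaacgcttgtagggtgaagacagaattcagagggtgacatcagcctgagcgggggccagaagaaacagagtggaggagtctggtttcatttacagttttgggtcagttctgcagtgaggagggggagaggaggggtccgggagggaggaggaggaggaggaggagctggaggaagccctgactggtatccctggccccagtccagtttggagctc
The COL6A2 stretch held 4 GC boxes and 1 TATA motif at 79.6% GC. The COL6A3 stretch held 0 matches to the CCAAT, GC box and TATA motifs on either strand, at 56.0% GC. In GENCODE the COL6A3 gene begins at 237414375, so most of its stretch lies inside the gene. The COL6A2 gene begins at 46098097, so only the last bases of its stretch do. Whether the contrast reflects the start used was not tested. TATAAA on either strand was present in 11.5% of all RefSeq promoter windows, which at 300 bases are longer than these stretches.

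The multiplexin COL18A1, whose C-terminal fragment is endostatin, was at 155 and 146 CPM in vector cells versus 139 and 121 CPM in LGP2 cells, both LGP2 libraries below both vector libraries. Its log2 fold change was -0.21 (SE 0.14, 95% interval -0.53 to 0.11), reaching -0.31 when LGP2 overexpression replicate 2 was dropped and -0.11 when replicate 3 of that group was. Exons of SLC19A1, a folate carrier on the opposite strand, overlap its exons, and SLC19A1 itself was at 27.9 to 29.9 CPM in the 4 libraries. COL15A1, the other multiplexin, had 8 to 15 counts in each library.

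COL7A1 (anchoring fibrils of the skin), COL12A1 and COL16A1 (FACIT chains) were the flattest of the abundant chains. COL7A1 was at 123 and 117 CPM in the vector pair, then 111 and 135 CPM in the LGP2 pair. COL12A1 was at 129 and 129 CPM (vector) against 125 and 132 CPM (LGP2). COL16A1 was at 38.4 and 40.4 CPM in vector cells versus 39.7 and 38.5 CPM in LGP2 cells. All 3 overlapped between groups, with log2 fold changes of 0.032 for COL7A1, -0.0043 for COL12A1 and -0.013 for COL16A1 (SE 0.14 to 0.16), and the signs of all 3 changed with single libraries left out. Their 95% intervals, of which the widest was -0.37 to 0.34, held changes well short of 2-fold. The summed level of the 7 FACIT genes was 170 and 173 CPM in the vector pair, then 169 and 174 CPM in the LGP2 pair.

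COL13A1 was the chain gene with the smallest p. It encodes a transmembrane collagen of cell adhesion sites and of the neuromuscular junction and lies on chromosome 10 (69801867 to 69964275, plus strand). Its level was 12.2 and 11.8 CPM (vector) against 16.8 and 16.2 CPM (LGP2), so the groups did not overlap and the replicates lay close together. The log2 fold change was 0.46, with SE 0.19, a 95% interval of 0.043 to 0.88, an unadjusted p of 0.0336 and an edgeR adjusted p of 0.998, and it ran from 0.43 to 0.49 without each library in turn. It did not pass over all genes tested. The 250 bases before its RefSeq start (chr10:69801656-69801905, plus strand, GRCh38.p14) are shown because it stood first among the chains, with a TATA motif in capitals.
COL13A1: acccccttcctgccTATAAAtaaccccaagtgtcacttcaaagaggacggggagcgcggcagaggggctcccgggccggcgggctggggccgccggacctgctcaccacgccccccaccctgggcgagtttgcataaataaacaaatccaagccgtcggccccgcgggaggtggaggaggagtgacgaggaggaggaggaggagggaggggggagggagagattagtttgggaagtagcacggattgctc
This stretch held 1 TATA motif and 0 CCAAT or GC box motifs, at 64.0% GC. The motif lies at the far end of the stretch from the start, whereas that of COL6A2 lies close to its start. The GENCODE gene span of COL13A1 begins at 69801867, inside this stretch. COL17A1, the transmembrane chain of hemidesmosomes, was at 2.24 and 2.90 CPM in vector cells versus 2.01 and 4.02 CPM in LGP2 cells, with overlap.

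Type VIII collagen forms hexagonal lattices under endothelia and in the cornea. COL8A2 was at 0.855 and 0.658 CPM in the vector pair, then 1.16 and 1.84 CPM in the LGP2 pair, and COL8A1 at 7.94 and 11.7 CPM (vector) against 12.6 and 12.8 CPM (LGP2). Both were higher in both LGP2 libraries, with log2 fold changes of 0.99 (SE 0.52, 95% interval -0.17 to 2.14) and 0.37 (SE 0.23, 95% interval -0.15 to 0.89) that did not pass. The counts behind COL8A2 were 52 and 40 in vector cells versus 65 and 120 in LGP2 cells. Of 4 endothelial markers 2 were analysed here, PECAM1 and CLDN5, with a summed level of 3.37 and 5.23 CPM under vector and 5.65 and 7.99 CPM under LGP2 overexpression, and their part in the type VIII levels was not tested. The log2 fold change of COL8A1 was 0.12 when vector replicate 2 was dropped and 0.67 without vector replicate 3, and that of COL8A2 was 0.61 without LGP2 overexpression replicate 3. The remaining low chains were COL14A1 (96 to 166 counts), COL19A1 (39 to 96), COL9A2 (7 to 15), COL9A3 (4 to 22) and COL21A1, which had 39 counts in vector replicate 3 and 4 to 8 elsewhere. Opposite-strand exons also overlap COL9A3, COL15A1, COL16A1 and COL19A1. The 16 tested genes outside the fibrillar and type IV classes had 9 log2 fold changes above 0 and 7 below, with a median of 0.13, which was 0.36 when vector replicate 3 was left out and -0.046 without LGP2 overexpression replicate 3.

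**Figure D3:**
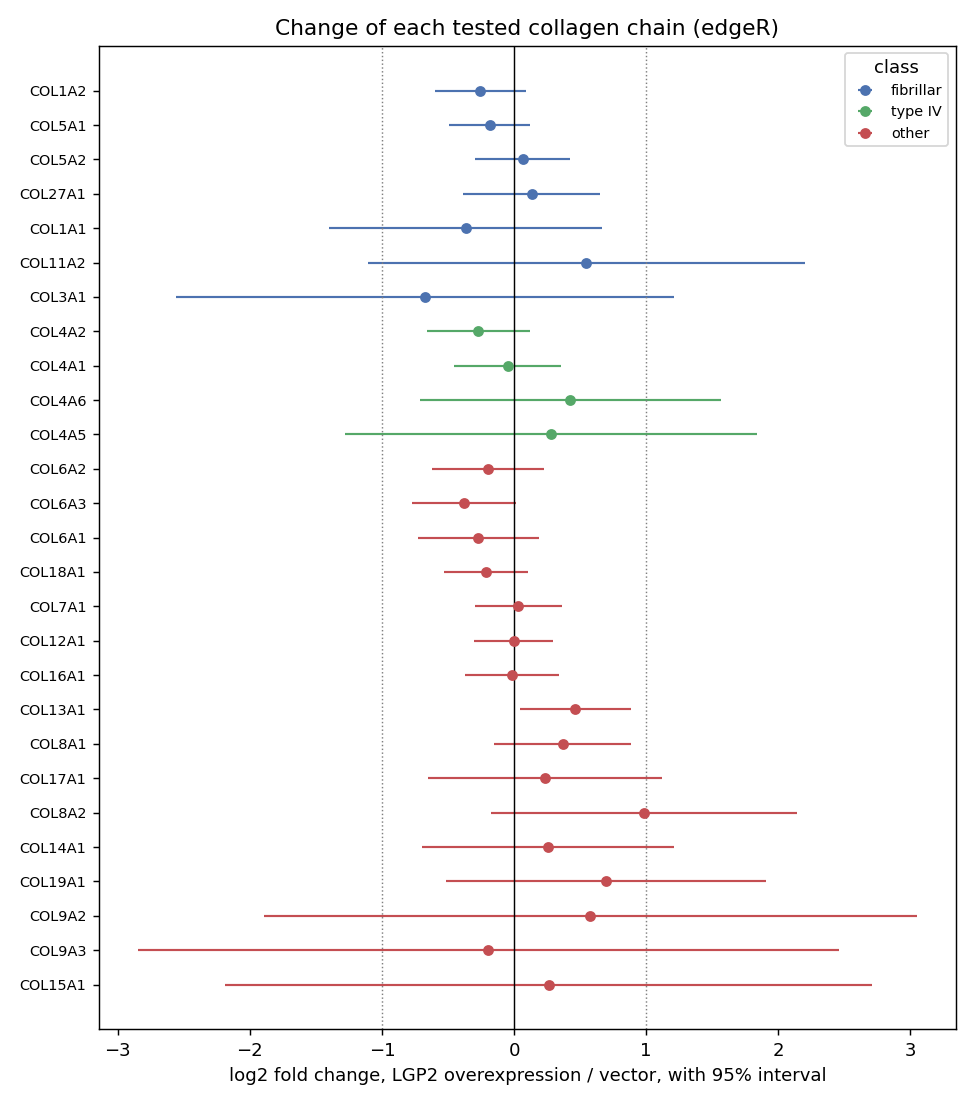
Log2 fold change of LGP2 overexpression over vector for the 27 tested collagen chain genes, with 95% intervals from edgeR, coloured by class, and dotted lines at a 2-fold change. All intervals but that of COL13A1 (0.043 to 0.88) include 0, and those of the abundant chains stay within the dotted lines.

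Over all 27 tested chain genes 0 were called, beside 0.0168% of all genes tested with edgeR, and DESeq2 and limma-voom also called 0. At an unadjusted p under 0.05 in the main edgeR fit there was 1 gene, COL13A1, which is higher, and 0 lower. Of all genes tested 4.46% lay under that limit, 3.0% higher and 1.46% lower. DESeq2 and limma-voom each gave 1 chain higher and 1 lower. So did edgeR with the replicate block, with plain library totals, or with GC and length offsets. The other edgeR settings with all 4 libraries gave 1 higher and 0 lower. Groups did not overlap for 6 higher genes (COL13A1, COL8A1, COL8A2, COL4A6, COL9A2 and COL11A2) and 5 lower genes (COL6A3, COL1A2, COL18A1, COL5A1 and COL3A1), while 16.7% of all genes tested were higher and 16.5% lower without overlap, 33.2% in all. A 2-fold change up or down lay outside the 95% interval of 15 of the 27, beside 61.1% of all genes tested.

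Depth separated these 27 genes. The 15 chains with a mean of at least 10 CPM were those 15 whose interval excluded a 2-fold change, and among all genes at that level 96.5% had such an interval. Of these 15 abundant chains 10 lay below 0 (median log2 fold change -0.049), and of the 12 tested chains under 10 CPM 9 lay above 0 (median 0.27). Over all genes tested the medians were -0.02 at 10 CPM or more and 0.03 below it. Across the 27 genes Spearman's rho between mean CPM and log2 fold change was -0.543, against -0.0576 across all genes tested. The genes share 4 libraries and their low members rest on few counts, so this is a description, and the level of 10 CPM was chosen after the values were seen.

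**Figure D4:**
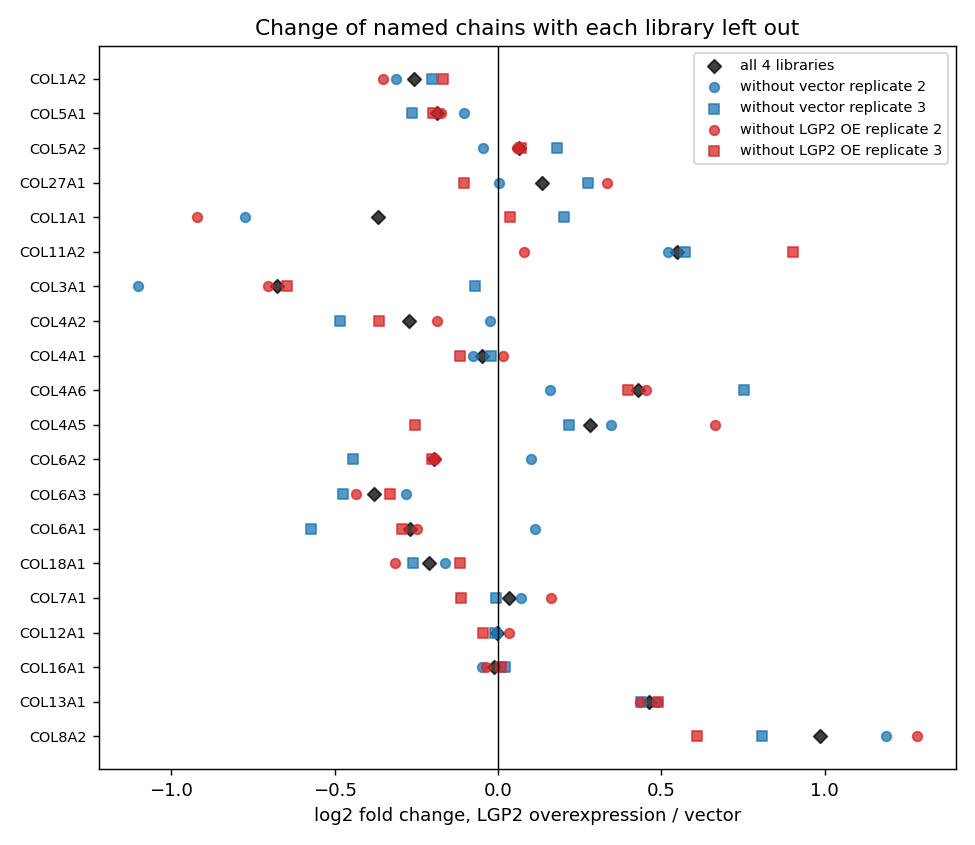
Log2 fold change of the 20 collagen chain genes described library by library, from edgeR fits with all 4 libraries (black) and without each library in turn (blue, a vector library left out, red, an LGP2 overexpression library left out). COL6A1 and COL6A2 pass from -0.57 and -0.44 without vector replicate 3 to 0.11 and 0.10 without vector replicate 2, while COL13A1 stays between 0.43 and 0.49.

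Collagen chains depend on a set of enzymes and chaperones in the endoplasmic reticulum, on proteases that trim the propeptides, on lysyl oxidases that cross-link the fibrils, and on receptors at the cell surface. With collagenases, which break collagen down, the list held 54 genes. Of these genes 50 were analysed here and 49 tested. Calls numbered 0 with edgeR, DESeq2 or limma-voom (0.0168% of all genes tested by edgeR). At an unadjusted p under 0.05 there were 3 higher and 0 lower, where all genes tested gave 3.0% higher and 1.46% lower. With offsets for GC content and transcript length in edgeR there were 0 higher and 1 lower. The 3 higher genes, PLOD2, MIA2 and ITGA2, thus no longer lay under that limit. Over all genes tested the same offsets moved 536 higher and 260 lower to 296 higher and 414 lower. In the main fit the log2 fold changes of the 49 genes split into 22 above and 27 below 0, with a median of -0.042. The 27 below 0 include all 5 collagenases (-0.14 to -0.0063). P4HB, the β subunit of prolyl 4-hydroxylase, was at 1098 and 944 CPM in the vector pair, then 1020 and 837 CPM in the LGP2 pair, and the collagen chaperone FKBP10 at 186 and 166 CPM (vector) against 170 and 140 CPM (LGP2).

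PLOD2, the lysyl hydroxylase of the telopeptides that directs fibril cross-links, was at 140 and 146 CPM in vector cells versus 169 and 221 CPM in LGP2 cells. Its log2 fold change came to 0.45 (SE 0.16, 95% interval 0.093 to 0.81, unadjusted p = 0.0185 and adjusted p = 0.998 by edgeR), and 0.24 without LGP2 overexpression replicate 3. Its relatives PLOD1 and PLOD3 were at -0.26 (SE 0.17) and -0.30 (SE 0.15), and the difference between the 3 was not tested. MIA2, which helps load bulky cargo into transport vesicles, was at 3.75 and 4.97 CPM in the vector pair, then 6.54 and 7.34 CPM in the LGP2 pair, a log2 fold change of 0.67 (SE 0.27). Exons on the opposite strand overlap those of MIA2, P4HB, PLOD3, PCOLCE, LOXL2, ITGB1 and MMP1, and ENTPD4 also overlaps LOXL2 on its own strand, so reads of these genes are uncertain.

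PCOLCE, which speeds the removal of the C-propeptide, was at 114 and 90.0 CPM (vector) against 87.1 and 72.9 CPM (LGP2), a log2 fold change of -0.35 (SE 0.16) without overlap. It was -0.17 without vector replicate 2 and -0.51 without vector replicate 3. The cross-linking enzyme LOXL2 was at 362 and 259 CPM in vector cells versus 313 and 257 CPM in LGP2 cells, with overlap. MMP1, a collagenase that cleaves fibrillar collagen, was at 2377 and 2020 CPM in the vector pair, then 1796 and 2458 CPM in the LGP2 pair, also with overlap.

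Of the collagen receptors, ITGA2, which encodes the α2 integrin subunit, was at 118 and 177 CPM (vector) against 196 and 202 CPM (LGP2). Its log2 fold change was 0.43 (SE 0.19, unadjusted p = 0.0456, adjusted p = 0.998 by edgeR). It was called without vector replicate 3 (0.75, adjusted p = 0.00189 by edgeR, with 1 vector library in the fit), and was at 0.16 without vector replicate 2. ITGB1, its β partner, was at 743 and 749 CPM in vector cells versus 817 and 890 CPM in LGP2 cells, a log2 fold change of 0.19 (SE 0.16) without overlap.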

How the data were processed

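The deposited table holds whole-number read counts by human gene symbol for 4 libraries, as the authors made it, without coordinates. A mouse build, mm10, is named in the submitters' processing notes. How reads were aligned and counted, and whether strand was used, is not given in the sources used here.

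Groups were compared by edgeR 4.0.16 in R 4.3.3 (quasi-likelihood, both directions, TMM), with Benjamini-Hochberg adjustment over the 17863 genes that filterByExpr left. Genes under an adjusted p of 0.05 were called. CPM use TMM-scaled totals. SE come from the F statistic. Alternatives used limma 3.58.1 and DESeq2 1.42.0. The code was tested on simulated counts with a common spread for all genes, which gives no measure of its power in these data.

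Symbols were matched to GENCODE 29 (GRCh38), all 29 chains included. Lengths are merged exons or the longest transcript. Promoter windows are from RefSeq (GRCh38.p14), found for 21 of the 29 chains. Those of COL1A1, COL1A2 and COL6A1 were not among them.

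The chains and lists were chosen with earlier results of these data known. Described in full were called chains, in each class up to 8 (type IV: 4) with the highest level per kb, the largest rise and fall among those averaging 1 CPM or more, and any under an unadjusted p of 0.05, giving 20 chains. For the processing list these were the most abundant gene per step and any under that p. Other genes named were chosen after their values were seen.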

Additional observations from a re-analysis of the deposited data

How the results depend on the processing

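No collagen chain was called under any alternative with all 4 libraries. Without each library in turn, calls ran from 0 to 1 for chains, 0 to 1 for processing genes and 2 to 432 for all genes. A fit without a library assumes that the lone library of a group varies like the other group. All genes called numbered 3, against 1 with no filter, 6 with at least 5 CPM in 2 libraries, 22 with DESeq2 and 6 with limma-voom. With the replicate number as a block 8 genes were called and 0 collagen chains. Replicate deviations correlated at 0.031 between groups, so the numbers were not taken as pairs. The median log2 fold change of type IV chains was -0.043 with no filter and -0.16 at 5 CPM, where 5 and 2 genes were tested. For other chains it was 0.038 and -0.010, with 17 and 9 genes. For fibrillar chains it was -0.18 and -0.057, with 7 and 4 genes. Without each library the medians ran from -0.17 to 0.18 (fibrillar), -0.18 to 0.23 (type IV) and -0.046 to 0.36 (other), and the log2 ratio of summed other chains from -0.40 to -0.12 (all chains: -0.36 to -0.14). Plain library totals turned COL12A1 to 0.042, COL16A1 to 0.031 and MMP1 to 0.0045, no filter turned COL12A1 to 0.0011, and GC and length offsets turned COL16A1 to 0.029. The cause was not tested. Log2 fold changes that changed sign without a library ran from -0.92 to 0.20 (COL1A1), -0.045 to 0.18 (COL5A2), -0.10 to 0.33 (COL27A1), -0.12 to 0.014 (COL4A1), -0.25 to 0.66 (COL4A5), -0.57 to 0.11 (COL6A1), -0.44 to 0.10 (COL6A2), -0.11 to 0.16 (COL7A1), -0.046 to 0.035 (COL12A1), -0.050 to 0.022 (COL16A1), -0.34 to 0.14 (LOXL2) and -0.29 to 0.16 (MMP1). Depth limits the chains under 10 CPM, whose intervals all include a 2-fold change.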
